A study of Mus musculus with 2 samples.

Results

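Genes of T cell identity and T cell receptor signalling were followed in mouse spleens remodelled with silica (SiO2) and in spleens given phosphate-buffered saline (PBS). Of the 34 names on the list, 32 were gene symbols and 1, Thpok, is an older name of Zbtb7b, while the entry Cd40lg_none matched no gene. All 33 genes had a probe above background on both arrays, out of 16774 named genes with a probe above background on at least 1 array. Each group was 1 one-colour Agilent array, loaded with RNA pooled from 5 spleens of female mice and taken 19 days after the first injection of SiO2 or of PBS. Strain, age and genotype were not given in the sources used here, and neither were the dose and the route. The list was chosen by gene function, with earlier results of these data known, and each gene was read from the brightest of its probes.

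A T cell recognises peptide on MHC molecules through its antigen receptor, which cannot signal by itself and relies on the CD3 chains. The coreceptor CD4 or CD8 brings the kinase Lck to the engaged receptor. Lck phosphorylates the CD3 chains, the kinase Zap70 docks there, and the adaptors Lat and SLP-76 then link the receptor to calcium and gene control. In the spleen, naive T cells gather in the T zones of the white pulp, drawn there through the chemokine receptor Ccr7, while effector and memory T cells and natural killer (NK) cells use the transcription factors T-bet and Eomes.

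Signals are given as multiples of each array's 75th percentile and called relative signals. Differences are log2 of the SiO2 pool minus log2 of the PBS pool. With 1 array a group there is no test, no p-value and no spread between animals. The error beside a difference is the scanner software's own model for a spot, about 10% of the signal on each array, which gave 0.20 to 0.26 for a log2 difference of these genes. The SD of the log2 difference among spots of a repeated probe was smaller at the median, at 0.063 (312 probes). At the 95th percentile it was 0.228, above the 0.204 that was the median error of these genes. The number of arrays limits the precision, and neither error covers animals, pools or labelling. Before scaling the SiO2 array was dimmer as a whole, with a 75th percentile of 469 against 670 on the PBS array. All 47 probes of these genes were dimmer there too, as were 13606 of all 16774 genes, each by its brightest probe.

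T cell genes were slightly lower in the SiO2 pool, and unevenly so. The median difference over the 33 genes was -0.33, or 1.26-fold lower, against a median of 0.03 over all genes. Of the 33, 26 (78.8%) lay below 0, where 47.7% of all genes did. By more than 2 errors, 14 lay below 0 and 0 above it. The share of all genes past 2 errors was not counted, so these counts have no comparison. At least 1.5-fold lower were 10 genes (30.3%), against 12.3% of all genes, and 0 were at least 1.5-fold higher, against 16.0%. At least 2-fold lower were 3 genes (9.09%), namely Eomes, Cd7 and Il2rb, against 3.69% of all genes. None was at least 2-fold higher, against 6.62%. In a whole tissue, fewer cells of a type and less RNA per cell cannot be told apart. By role, the medians ran from -0.03 for the 3 coreceptors and -0.12 for the 4 CD3 chains to -1.03 for the 3 effector genes, though the chain Cd3e lay at the list's median.

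**Figure D1:**
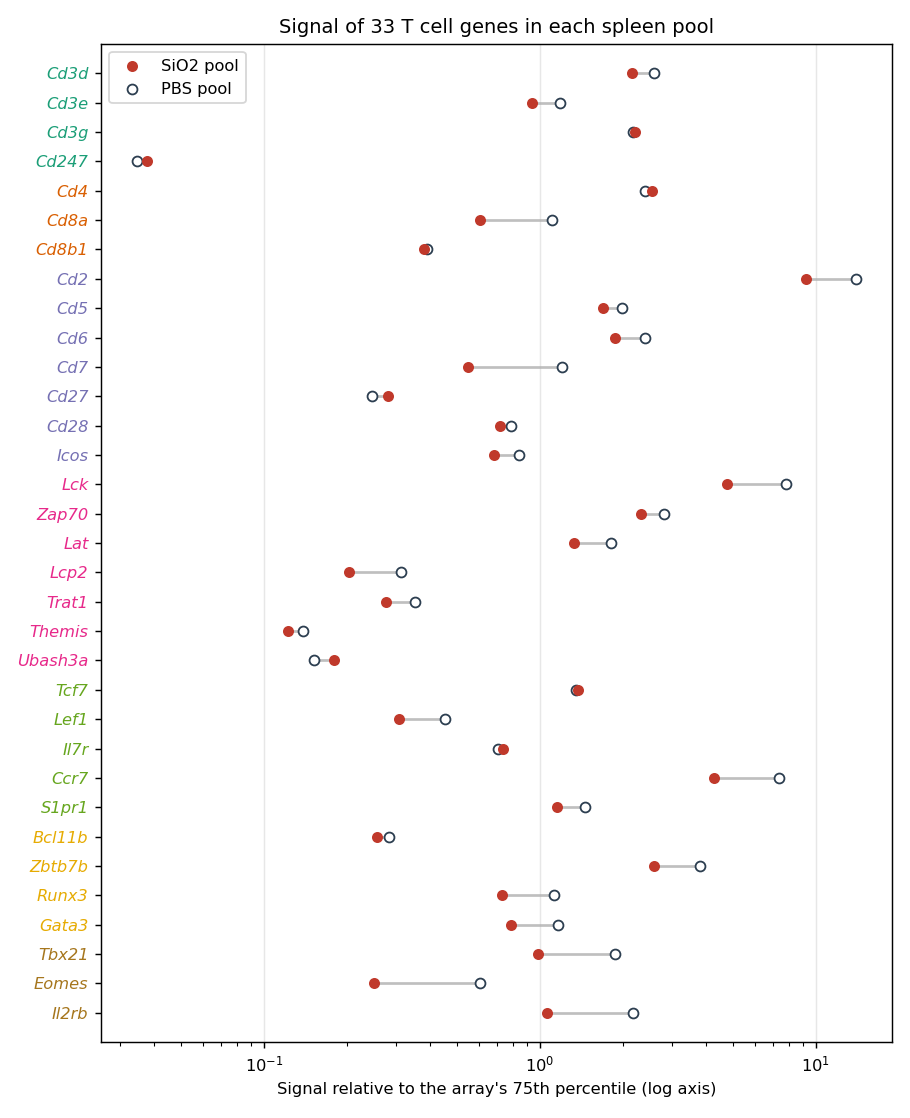
Relative signal of each of the 33 T cell genes (multiples of the array's 75th percentile, log axis), in the SiO2 pool (filled points) and the PBS pool (open points), with gene names coloured by role. The widest gaps are those of Eomes, Cd7 and Il2rb, with the SiO2 point on the left, and the points of Cd3g, Cd8b1 and Tcf7 nearly coincide. Brightness differs between probes and is not a measure of abundance between genes.

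The chains that carry the receptor's signal differed little. Cd3d had a relative signal of 2.15 in the SiO2 pool and 2.59 in the PBS pool, a difference of -0.26 ± 0.20. Cd3e had 0.937 in SiO2 and 1.18 in PBS, a difference of -0.33 ± 0.20. Cd3g had 2.22 in SiO2 and 2.18 in PBS, a difference of 0.03 ± 0.20. Cd3d and Cd3e were thus below 0 by more than 1 error and less than 2, and Cd3g was within its error. Cd247, the zeta chain with the most phosphorylation motifs of the complex, was dim, with unscaled signals of 17.7 in SiO2 and 23.2 in PBS, and its difference was 0.12 ± 0.26. None of the 4 genes differed 1.5-fold, and each was read by 1 probe. All 4 were above background in both pools.

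Cd3d and Cd3g lie next to each other and are transcribed away from each other, with 1355 bases between their starts, so the upstream sequences of these neighbours, with differences of -0.26 and 0.03, are shown. Each line gives the 250 bases before the gene's start, 5′ to 3′, from RefSeq on build GRCm38.p6, with capitals for matches on either strand to 5 short motifs. These were TGTGGT for RUNX factors, CTTTGA for the factors TCF-1 and Lef1, AGGTGT for T-box factors, AGATAA for GATA factors and AGGAAG for ETS factors.
Cd3d, chr9:44981536-44981785, plus strand: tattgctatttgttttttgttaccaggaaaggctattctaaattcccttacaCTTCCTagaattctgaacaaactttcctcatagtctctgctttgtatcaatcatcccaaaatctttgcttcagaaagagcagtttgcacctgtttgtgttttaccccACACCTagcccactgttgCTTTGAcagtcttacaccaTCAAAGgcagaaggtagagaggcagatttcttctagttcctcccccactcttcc
Cd3g, chr9:44980432-44980681, minus strand: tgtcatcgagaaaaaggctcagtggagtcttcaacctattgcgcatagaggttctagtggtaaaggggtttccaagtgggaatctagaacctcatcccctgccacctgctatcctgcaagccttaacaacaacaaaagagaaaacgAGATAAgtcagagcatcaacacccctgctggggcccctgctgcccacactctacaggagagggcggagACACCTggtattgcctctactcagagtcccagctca
The Cd3d window held 2 TCF/LEF matches, 1 T-box match and 1 ETS match, and the Cd3g window 1 T-box match and 1 GATA match, with no overlap between matches. Over the first listed windows of 27025 genes, 14.2% held the RUNX letters, 14.1% the TCF/LEF letters, 12% the T-box letters, 10.3% the GATA letters and 29.2% the ETS letters. Of the 23 T cell genes found in that table, 3 held the RUNX letters, 5 the TCF/LEF letters, 5 the T-box letters, 2 the GATA letters and 11 the ETS letters. A match describes the letters and does not show a bound factor.

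The coreceptors parted. Cd4, which binds MHC class II, had a relative signal of 2.56 in the SiO2 pool and 2.40 in the PBS pool, a difference of 0.09 ± 0.20. Cd8a, the CD8 alpha chain, which binds MHC class I, had 0.606 in SiO2 and 1.105 in PBS, which is 1.82-fold lower (-0.87 ± 0.20). Cd8b1, the beta chain that pairs with alpha on conventional CD8 T cells, had 0.382 in SiO2 and 0.389 in PBS, a difference of -0.03 ± 0.20. By the brightest probes, the lower value of CD8 stood in the alpha chain and not in the beta chain, which had 1 probe. The difference of Cd8a minus that of Cd8b1 was -0.84 ± 0.29 by these probes and -0.35 by the other of 2 probe pairs. The size for Cd8a also depended on the probe, since its dimmer probe gave -0.38 in place of -0.87. The dimmer Cd4 probe, at unscaled signals of 21.9 in SiO2 and 38.2 in PBS, gave -0.29 in place of 0.09. Set against each other within the arrays, the difference of Cd8a minus that of Cd4 was -0.96 ± 0.29 by the brightest probes. Over the 4 pairs of their probes that difference ran between -0.96 and -0.10, while Cd8b1 minus Cd4 ran between -0.12 and 0.26 over 2 pairs.

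In mouse spleen the CD8 alpha chain is also carried, without the beta chain, by cross-presenting dendritic cells. Markers of those cells were lower in the SiO2 pool, and of 8 listed, 7 were on the array, with a range of -2.95 to 0.59. Of these 7, 6 were at least 1.5-fold lower and 4 at least 2-fold lower, against 12.3% and 3.69% of all genes. Their relative signals summed to 28.9 in SiO2 and 49.8 in PBS, and all 7 were above background in both pools. Xcr1, their chemokine receptor, had relative signals of 0.100 in SiO2 and 0.777 in PBS and was 7.75-fold lower. Clec9a, their receptor for dead cells, was 5.25-fold lower, Cadm1 2.32-fold lower and Batf3 2.14-fold lower. The part of these cells in the Cd8a difference was not tested.

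Adhesion and costimulatory receptors spread from Cd7 at the low end to Cd27 at the high end. Cd7, a surface receptor of T and NK cells, had 0.547 in SiO2 and 1.21 in PBS, which is 2.20-fold lower (-1.14 ± 0.20). Cd2, the adhesion receptor for Cd48, was bright in both pools, with 9.21 in SiO2 and 14.04 in PBS, and was 1.52-fold lower (-0.61 ± 0.20), or -0.38 by its dimmer probe. Both lay below 0 by more than 2 errors. The inhibitory receptor Cd5 had 1.69 in SiO2 and 1.98 in PBS (-0.23 ± 0.20). The related receptor Cd6 had 1.87 in SiO2 and 2.39 in PBS (-0.35 ± 0.20). Icos, the inducible costimulator of activated and follicular helper T cells, had 0.684 in SiO2 and 0.838 in PBS (-0.29 ± 0.20). For Cd6 and Icos the direction rested on the probe, since their dimmer probes gave 0.26 and 0.22. Cd28, the main costimulator of naive T cells, had 0.717 in SiO2 and 0.789 in PBS (-0.14 ± 0.20). Cd27, a TNF receptor family member of naive and memory T cells, had 0.282 in SiO2 and 0.247 in PBS, a difference of 0.19 ± 0.21, and 0.13 by its other probe. Of the 7 receptors, 6 lay below 0 and 2 were at least 1.5-fold lower, against 47.7% and 12.3% of all genes.

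**Figure D2:**
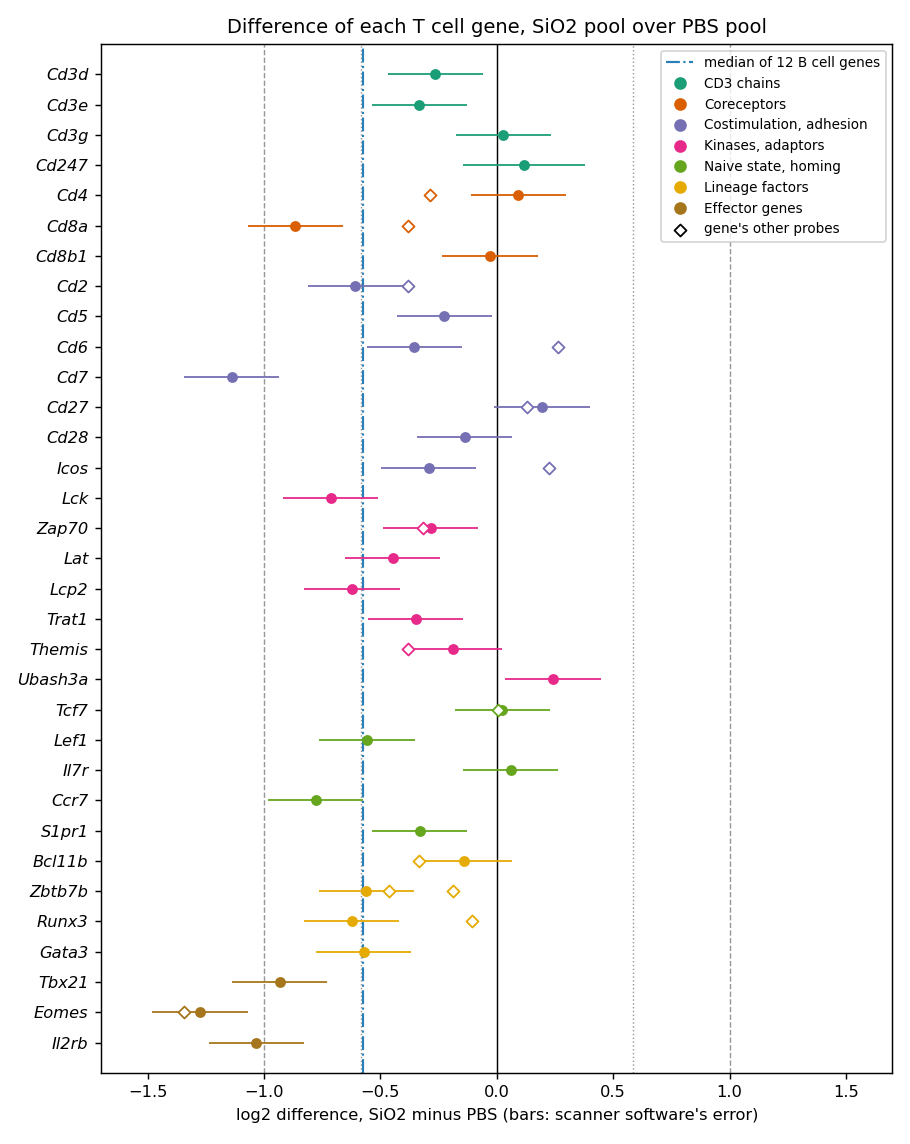
Log2 difference (SiO2 minus PBS) of each T cell gene by its brightest probe, with the scanner software's error as bars; diamonds are the gene's other probes, dotted and dashed lines mark 1.5-fold and 2-fold, and the blue line is the median of 12 B cell genes at -0.57. Cd7 and the effector genes lie furthest to the left, no gene lies beyond 1.5-fold on the right, and the diamonds of Cd4, Cd6 and Icos lie on the other side of 0 from their points.

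Of the 7 proximal signalling genes, 6 lay below 0 and 2 were at least 1.5-fold lower, against 47.7% and 12.3% of all genes. Lck, the kinase that starts receptor signalling, had a relative signal of 4.77 in the SiO2 pool and 7.82 in the PBS pool, which is 1.64-fold lower (-0.71 ± 0.20). Lcp2, which encodes SLP-76, had 0.203 in SiO2 and 0.313 in PBS, 1.54-fold lower (-0.62 ± 0.21). Lat, the membrane scaffold for SLP-76, had 1.33 in SiO2 and 1.82 in PBS (-0.45 ± 0.20). These 3 lay below 0 by more than 2 errors. Zap70 had 2.32 in SiO2 and 2.82 in PBS (-0.28 ± 0.20), and its other probe gave -0.32. Trat1, a receptor-associated adaptor, had 0.277 in SiO2 and 0.353 in PBS (-0.35 ± 0.20). Themis, a thymocyte selection protein, had 0.122 in SiO2 and 0.139 in PBS (-0.19 ± 0.21). Ubash3a, a suppressor of receptor signalling, was the highest of the 33 genes, with 0.179 in SiO2 and 0.152 in PBS (0.24 ± 0.21). The adaptor and kinase genes had a median of -0.35, against -0.12 for the 4 CD3 chains, and these medians differ by about the error of 1 gene. Lcp2 is also used by NK and myeloid cells.

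Genes of the naive state and of homing divided by their values. Tcf7, the TCF-1 factor of naive and memory T cells, had 1.37 in SiO2 and 1.35 in PBS (0.02 ± 0.20), and its other probe gave 0.0035. Il7r, the receptor for the survival cytokine IL-7, had 0.736 in SiO2 and 0.706 in PBS (0.06 ± 0.20). These genes were within their error of 0. Ccr7, which draws naive T cells and dendritic cells to the T zone, had 4.29 in SiO2 and 7.36 in PBS, which is 1.71-fold lower (-0.78 ± 0.20). Lef1, the partner of TCF-1, had 0.309 in SiO2 and 0.454 in PBS, 1.47-fold lower (-0.56 ± 0.20). S1pr1, the receptor through which lymphocytes leave the organ and which endothelium and B cells also carry, had 1.15 in SiO2 and 1.45 in PBS (-0.33 ± 0.20). TCF-1 and Lef1, which act on shared targets, thus differed from each other by 0.58 ± 0.29 in their log2 differences.

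The lineage factors all lay below 0, by unequal amounts. Bcl11b, which holds T cell identity, had 0.257 in SiO2 and 0.283 in PBS (-0.14 ± 0.20). Zbtb7b, the ThPOK factor of the CD4 lineage, had 2.58 in SiO2 and 3.81 in PBS, 1.47-fold lower (-0.56 ± 0.20). Its dimmer probes gave -0.46 and -0.19. Runx3, the factor of the CD8 lineage that NK cells also use, had 0.729 in SiO2 and 1.12 in PBS, 1.54-fold lower (-0.62 ± 0.20). Its dimmer probe, at unscaled signals of 28.8 in SiO2 and 44.3 in PBS, gave -0.11, so passing 1.5-fold rested on the probe. Gata3, which directs type 2 helper cells and innate lymphoid cells, had 0.785 in SiO2 and 1.17 in PBS, 1.49-fold lower (-0.57 ± 0.20). The CD8 factor stood -0.06 ± 0.29 from the CD4 factor by the brightest probes, and between -0.43 and 0.45 over the 6 pairs of their probes, so the 2 lineage factors were not told apart. Of the 33 genes, Runx3, Lcp2 and Cd2 lay just past 1.5-fold lower, and Gata3, Zbtb7b and Lef1 just short of it.

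The effector genes were the lowest group. Eomes, a T-box factor of memory CD8 T cells and NK cells, had a relative signal of 0.251 in the SiO2 pool and 0.608 in the PBS pool, which is 2.42-fold lower (-1.28 ± 0.20). Its other probe gave -1.35, and only 1.90% of all genes ranked at or below it. Il2rb, the receptor chain shared by IL-2 and IL-15, had 1.06 in SiO2 and 2.17 in PBS, 2.05-fold lower (-1.03 ± 0.20). Tbx21, which encodes T-bet, the T-box factor of type 1 helper, cytotoxic and NK cells, had 0.983 in SiO2 and 1.88 in PBS, 1.91-fold lower (-0.93 ± 0.20). All 3 lay more than 2 errors below 0 and were at least 1.5-fold lower, where 12.3% of all genes were. Under normexp background correction the values were -0.98 for Eomes, -0.94 for Il2rb and -0.83 for Tbx21, which left Cd7 (-1.02) as the only gene of the 33 at least 2-fold lower.

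The 250 bases before the starts of the 2 T-box factors that were lower together are given as for the CD3 pair.
Tbx21, chr11:97115332-97115581, minus strand: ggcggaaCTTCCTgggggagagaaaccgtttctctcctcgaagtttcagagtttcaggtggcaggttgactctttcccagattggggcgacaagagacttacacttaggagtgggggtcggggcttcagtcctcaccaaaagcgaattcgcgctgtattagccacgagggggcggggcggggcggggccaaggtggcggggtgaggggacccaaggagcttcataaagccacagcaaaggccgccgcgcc
Eomes, chr9:118477939-118478188, plus strand: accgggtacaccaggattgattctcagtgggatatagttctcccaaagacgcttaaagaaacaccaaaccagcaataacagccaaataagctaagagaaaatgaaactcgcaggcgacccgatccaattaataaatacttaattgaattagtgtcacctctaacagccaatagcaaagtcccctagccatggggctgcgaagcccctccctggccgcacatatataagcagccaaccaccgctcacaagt
Of the 5 motifs, the Tbx21 window held 1 ETS match at 243 bases before the start, and no letters of these motifs were found in the Eomes window.

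NK cells express the 3 effector genes as well, and NK markers were lower in the SiO2 pool. Of the 12 NK genes listed, 9 were at least 2-fold lower, 0 were at least 2-fold higher, and the median was -1.65 with a range of -2.62 to 0.59. Of all genes, 3.69% were at least 2-fold lower and 6.62% at least 2-fold higher. Under normexp, which started from the median spot signal and added an offset of 50, the NK median was -0.80 and 5 genes were at least 2-fold lower. Gzma, a granzyme, had relative signals of 1.89 in SiO2 and 11.6 in PBS and was 6.15-fold lower. Klra8 was 3.71-fold lower, Klre1 3.73-fold lower and Klrb1c 3.69-fold lower, all receptors of NK cells, and Gzmb was 4.17-fold lower. Under normexp Gzma was at -2.62, Klra8 at -1.77, Gzmb at -1.72, Klrb1c at -0.89 in place of -1.88 and Klre1 at -0.62 in place of -1.90. All 12 were above background in both pools, none at 0, and their relative signals summed to 16.0 in SiO2 and 31.1 in PBS. In this bulk tissue the part of NK cells in the values of Tbx21, Eomes, Il2rb, Cd7 and Runx3 was not tested.

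Ranked among all genes, the low end of the list reached far down the array. Cd7 had 2.62% of all genes at or below its difference, Il2rb 3.30%, Tbx21 4.36%, Cd8a 5.27%, Ccr7 6.90% and Lck 8.45%. At the high end Ubash3a stood at 65.3% and Cd27 at 62.0%, so no T cell gene was near the top. Most of the 33 genes were of middle brightness. With all genes sorted by brightness into 5 equal bins, 12 T cell genes lay in the third and 14 in the fourth from the dimmest, with medians of -0.32 and -0.33 there, against -0.023 and -0.066 for all genes of those bins. Of the 13 genes with several probes, 8 had all probes below 0, 2 had all above it and 3, Cd4, Cd6 and Icos, had probes on both sides. The same shares over all genes with several probes were not counted.

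Several genes near 1.5-fold crossed it under normexp. Lcp2 was at -0.34 in place of -0.62 and Runx3 at -0.58, which took both short of 1.5-fold, while Zbtb7b was at -0.61 and passed it. Lef1 was at -0.36, Cd3e at -0.19, Trat1 at -0.16 and Bcl11b at -0.033. The brighter Ccr7, Lck and Cd2 were at -0.88, -0.73 and -0.69, slightly further from 0 than before.

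CD4, CD8, naive and effector genes were also set side by side. The 3 effector genes had a median of -1.03 (range -1.28 to -0.93). The CD8 genes Cd8a, Cd8b1 and Runx3 had a median of -0.62 (range -0.87 to -0.03). The CD4 genes Cd4, Zbtb7b and Icos had a median of -0.29 (range -0.56 to 0.09), and 7 naive genes (Tcf7, Lef1, Il7r, Ccr7, S1pr1, Cd27 and Cd28) a median of -0.14 (range -0.78 to 0.19). The effector range did not overlap the other ranges, while those of CD8, CD4 and naive genes overlapped each other. Under normexp the effector range of -0.98 to -0.83 did overlap that of the naive genes, since Ccr7 was at -0.88. Of the 9 alternatives, 5 shift all genes alike or leave these values as they were and so cannot change the order of the medians. Under normexp, quantile scaling and in the authors' values, where 1 CD4 gene is listed, the order was as given here. When all probes of a gene were averaged the CD8 median was -0.37 and the CD4 median -0.097, which lay above the naive median of -0.14. The gap between CD8 and CD4 genes was thus smaller than the differences among probes of Cd8a, Cd4, Icos and Runx3. Naive and effector genes lay closer together in the further lists. Their medians were -0.40 for 15 naive and quiescence genes and -0.51 for 20 activated and effector genes.

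**Figure D3:**
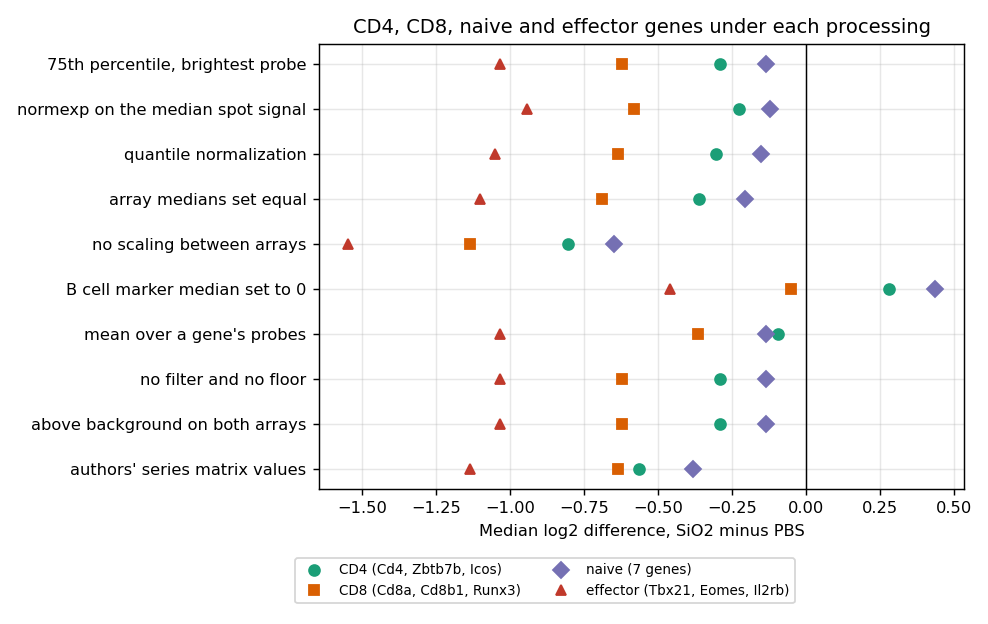
Median log2 difference (SiO2 minus PBS) of the effector, CD8, CD4 and naive genes under the processing used in the text (top row) and 9 alternatives. Effector genes have the lowest median in every row, which 5 of the alternatives could not change, and setting the B cell median to 0 moves the CD4 and naive medians above 0 while CD8 and effector genes stay below it.

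Most further genes of T cell receptor signalling lay below 0 too. Of 30 such genes, 29 were above background, with a median of -0.40. Of these, 27 lay below 0, 10 (34.5%) were at least 1.5-fold lower and 0 at least 1.5-fold higher. The shares of all genes were 47.7%, 12.3% and 16.0%. Txk, a kinase of the Tec family, had relative signals of 0.668 in SiO2 and 1.52 in PBS and was 2.28-fold lower. Rasgrp1, which links the receptor to Ras, had 2.90 in SiO2 and 5.90 in PBS and was 2.04-fold lower. Ubash3b, the relative of Ubash3a, was 1.79-fold lower (-0.84), whereas Ubash3a itself was at 0.24. The probe of Cd40lg, the CD40 ligand of helper T cells, was not well above background in either pool, with unscaled signals of 2.39 in SiO2 and 1.54 in PBS.

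Further genes of naive and quiescent T cells had a median of -0.40, with 13 of 15 below 0 and 4 at least 1.5-fold lower. The shares of all genes were 47.7% and 12.3%. The GTPases Gimap8 and Gimap5 were 1.59-fold and 1.51-fold lower. Further genes of activated and effector T cells had a median of -0.51, with 15 of 20 below 0, where 47.7% of all genes lay. At least 1.5-fold lower were 8 (40.0%) and at least 2-fold lower 3, against 12.3% and 3.69% of all genes. Under normexp these counts were 5 and 1, and 1128 and 258 over all 16774 genes. Gzmb was the lowest of them, the inhibitory receptor Klrg1 was 2.19-fold lower and the death ligand Fasl 2.15-fold lower, or at -0.59 under normexp. Gzmb and Prf1 are also in the NK list, by the same probes, and the part of NK cells in the values of this list was not tested. On the other side, 5 lay above 0: Pdcd1 at 0.38, Il12rb2 at 0.33, Gzmk at 0.21, Cxcr3 at 0.13 and Prf1 at 0.005. The dimmer probe of Il12rb2 gave -0.24. These genes were named after their values were seen.

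Ligands of the listed receptors were also measured. The list of 15 genes also held the kinases Sphk1 and Sphk2, the transporter Spns2 and the receptor chain Il15ra. Of the 15, 13 were above background in both pools, with a median of -0.25. Of these 13, 4 were at least 1.5-fold lower and 1, the kinase Sphk1 at 0.94, at least 1.5-fold higher. Of all 15900 genes above background in both pools, 1939 were at least 1.5-fold lower and 2432 at least 1.5-fold higher. Cd70, the ligand of Cd27, passed the background limit with SiO2 but not with PBS and is left out of these counts. Il15, a ligand of Il2rb, had relative signals of 0.110 in SiO2 and 0.222 in PBS and was 2.01-fold lower, beside 2.05-fold for Il2rb, but at -0.50 under normexp, beside -0.94. Icosl, the ligand of Icos, was 1.99-fold lower, and Cd86, a ligand of Cd28, 1.97-fold lower, beside -0.29 for Icos and -0.14 for Cd28. Ccl19 and Il7 were added after their values were seen: Ccl19, a ligand of Ccr7, was 1.94-fold lower by its brightest probe and at -0.23 by its highest probe, and Il7, the ligand of Il7r, lay at 0.16.

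The other cell types of the spleen did not differ by the same amount. B cell genes had a median of -0.57, with 11 of 12 below 0 and 5 at least 1.5-fold lower, against 47.7% and 12.3% of all genes. The B cell factors Ebf1 and Pax5 were 1.88-fold and 1.72-fold lower and the complement receptor Cr2 1.84-fold lower. The T cell median was 0.24 above that of the B cell genes. With the B cell median set to 0, 10 of the 33 T cell genes lay below 0. In that setting 7 were at least 1.5-fold higher and 1, Eomes at -0.70, at least 1.5-fold lower. Of all 16774 genes, 2121 then lay below 0, 8633 were at least 1.5-fold higher and 419 at least 1.5-fold lower. Other dendritic cell genes had a median of -0.60, led by Bst2 (2.84-fold lower), with Esam 1.83-fold and Clec4a4 1.60-fold lower. Erythroid genes were at least 2-fold higher in 10 of 10, with a median of 1.95, Epb42 at 6.08-fold, Kel at 4.50-fold, Tfrc at 4.42-fold and Ermap at 4.22-fold. Neutrophil genes were at least 2-fold higher in 7 of 9, with a median of 2.35, Ngp at 8.77-fold, Ltf at 7.80-fold, Lcn2 at 5.46-fold, Camp at 5.39-fold and Mmp8 at 5.10-fold. Of all genes, 6.62% were at least 2-fold higher. Relative signals of the erythroid list summed to 186 in SiO2 and 51.3 in PBS, and those of the neutrophil list to 194 in SiO2 and 84.7 in PBS. The part of the higher erythroid and neutrophil signal in the lower T cell values was not tested.

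**Figure D4:**
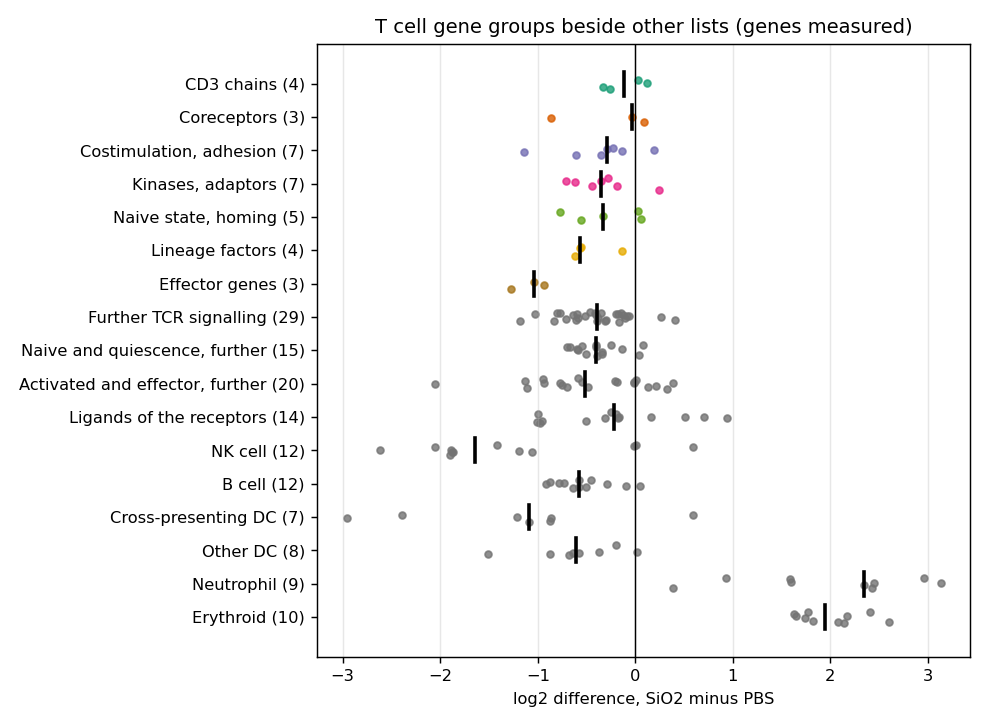
Log2 difference (SiO2 minus PBS) of single genes in the T cell groups (coloured) and in other lists (grey), with a black bar at each median and the number of genes measured in parentheses. Effector T cell genes (median -1.03) lie nearest to the cross-presenting dendritic cell list (median -1.09) and above the NK list (median -1.65), an order that turns under normexp, where the effector median of -0.94 lies below the NK median of -0.80. The CD3 chains (median -0.12) lie above the B cell list (median -0.57), and erythroid and neutrophil genes lie on the right.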

How the data were processed

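Gene expression was measured on 2 one-colour arrays (Cy3), 1 for each pool of 5 mouse spleens. RNA was isolated with a blood kit and depleted of globin message, per the labels' protocols. The deposited scanner files hold intensity on a linear scale, background-subtracted, made with Agilent Feature Extraction 11.0.1.1 per the file headers, and with version 9.1 per the submitters' processing notes. A series matrix deposited by the authors gives 26049 probes as log2. Against the scanner values they had slopes of 1.01 (SiO2) and 0.994 (PBS) and column medians of 5.68 in both, so scale and direction follow the scanner values, and how the columns were centred is not given in the sources.

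Outlier spots (148 on the SiO2 array, 145 on the PBS array) and control spots were left out, no spot was saturated, and 74.9% (SiO2) and 75.5% (PBS) of spots were well above background. Log2 of the processed intensity minus that of the array's 75th percentile was used, with repeated spots averaged. Names came from the unversioned accession and the RefSeq table of GRCm38.p6, and 27217 of 39398 had 1 symbol. A gene was read from its brightest probe above background on at least 1 array. A dim value on the other array was raised to the lowest value above background there, which touched none of the 33 genes. Python 3.11.15, numpy 2.4.6, pandas 2.3.3, R 4.3.3 and limma 3.58.1 (normexp, offset 50) were used, and the steps were tested on simulated data. The files hold no mean spot signal, so normexp took the median signal.

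Members and lists were chosen with earlier results of these data known. All members are named, and of each other list the genes at least 2-fold different or the 3 furthest from 0, at most 5. A few such genes are not reported here. Alternatives covered background correction, scaling, probe choice, filter and source of values.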

Additional observations from a re-analysis of the deposited data

How the results depend on the processing

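The alternatives changed scaling, background correction, probe choice, filter and source of values. No gene at least 1.5-fold lower changed sign under normexp, quantile scaling or the mean over probes, or in the authors' values where it was listed. The mean over probes can move only genes with several probes. The other alternatives could not change such a sign. Equal medians and no scaling lower every gene, and the filters left these values as they were. Setting the B cell median to 0 raises every gene by less than 1.5-fold. The T cell median of -0.33 was -0.40 with array medians set equal, -0.85 without scaling and -0.41 in the authors' values, which list 21 of the 33 genes by the same probe, and it reversed to 0.24 with the B cell median set to 0. The 3 genes at least 2-fold lower became 1 under normexp, 13 without scaling and 0 with the B cell median at 0. Over all 16774 genes, 619 at least 2-fold lower became 258, 2692 and 164 in these settings. The 10 genes at least 1.5-fold lower became 25 without scaling and 1 with the B cell median at 0, where 7 were at least 1.5-fold higher and 10 below 0. Over all genes, 2057 at least 1.5-fold lower became 7081 without scaling and 419 with the B cell median at 0. In the latter setting 8633 of all genes were at least 1.5-fold higher and 2121 below 0.

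The CD4 median of -0.29 was -0.23 under normexp, -0.36 with array medians set equal, -0.81 without scaling, -0.097 with the mean over probes and -0.56 in the authors' values, and it reversed to 0.28 with the B cell median at 0. The CD8 median of -0.62 was -0.69, -1.14 and -0.050 with array medians set equal, without scaling and with the B cell median at 0, and -0.37 with the mean over probes. The naive median of -0.14 was -0.21 with array medians set equal, -0.65 without scaling and -0.38 in the authors' values, and reversed to 0.44 with the B cell median at 0. The effector median of -1.03 was -0.94 under normexp, -1.10 with array medians set equal, -1.55 without scaling, -0.46 with the B cell median at 0 and -1.14 in the authors' values. Equal medians, no scaling and the B cell setting each shift every gene by a constant, and the authors' values hold fewer of the genes; the cause of the other moves was not tested. Over all genes the median was 0.03, 0.18 under normexp, -0.48 without scaling and 0.60 with the B cell median at 0. Under normexp, which also took another signal column and an offset of 50, the NK median of -1.65 was -0.80, Cd247 was at 0.32 and Themis at 0.06. Signal over background limits Cd247, with an error of 0.26, the largest of the 33. No paired analysis was possible because each group is 1 array.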
